A study of Capra hircus with 3 samples.

Results

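The genes described here encode 9 proteins of the milk fat globule and of the lipid droplet from which it forms: BTN1A1, XDH, PLIN2, PLIN3, MFGE8, MUC1, CIDEA, CD36 and RAB18. They were chosen by symbol, each symbol was looked up as a goat NCBI gene ID, and all 9 IDs were found among the 13023 protein-coding genes with a deposited value. Each gene had 1 locus, and no other deposited locus overlapped any of them. The tissue was mammary gland of 5 Laoshan dairy goats, 4 years old and in the third lactation, taken by surgery at early lactation (10 days after parturition), peak lactation (90 days) and late lactation (210 days). Every stage was sampled under general anaesthesia with xylazine. The RNA of the 5 goats was pooled in equal parts into 1 library per stage, so the spread between goats cannot be estimated, no test was possible and none of the differences below has a replicate check or a p-value. The measured quantity is FPKM, a fragment number scaled by transcript length and by the mapped reads of the library, so that levels can be set side by side between genes. Read numbers per gene were not analysed here, so the counting error behind each FPKM was not computed.

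The stage labels of the peak and late libraries are open to doubt. Of 148 annotated lncRNA genes that are listed as different between peak and late lactation and have deposited values, 128 ran in the opposite direction between the columns with those labels. Among 135 lncRNA genes listed as different between early and late lactation, 117 had the listed direction between the columns labelled early and peak. Only 58 of 133 had it between the columns labelled early and late. The list between early and peak lactation separated the labels less, since 36 of 66 genes had the listed direction between the columns labelled early and peak and 43 of 66 between those labelled early and late. Which stage a column holds cannot be settled from the deposited values, and the libraries are called early, peak-labelled and late-labelled throughout.

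Milk fat is made in the luminal epithelial cell as cytoplasmic lipid droplets. The droplets carry perilipins on their surface, grow by fusion, move to the apical side and leave the cell wrapped in plasma membrane, which gives the milk fat globule its membrane. In the classical view BTN1A1 in the apical membrane, the enzyme XDH and the droplet coat protein PLIN2 hold the droplet and the membrane together. The luminal epithelial markers were present in all 3 libraries, with 363.6 to 439 FPKM of KRT19 and 60.0 to 77.8 FPKM of EPCAM, so the labelled tissue had its defining epithelial markers.

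All 9 genes were lowest in the peak-labelled library. Of all protein-coding genes above 0 in at least 1 library, 41.2% had their lowest value there, and of the 370 with at least 100 FPKM in 1 of the libraries, called the abundant class below, 78.1% did. In 7 of the 9 genes the order was peak-labelled, early, late-labelled from low to high, which was the order of 25.9% of all protein-coding genes and of 45.1% of the abundant class, and PLIN2 and PLIN3 had the early library on top. The summed FPKM of the 9 genes was 7895 in the early library, 2843 in the peak-labelled library and 9833 in the late-labelled library. This was 1.65%, 1.03% and 2.33% of the FPKM of all protein-coding genes.

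**Figure D1:**
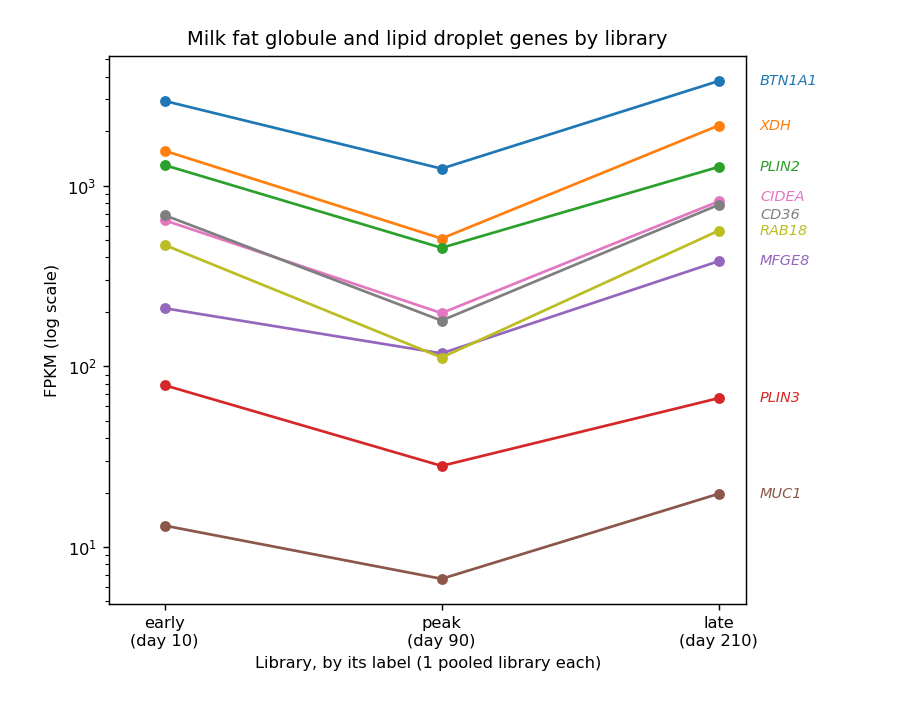
FPKM on a log scale of the 9 genes in the early, peak-labelled and late-labelled libraries, 1 point per gene and library, with lines that only join the points of a gene. Every line has its lowest point in the peak-labelled library, and the levels span 6.66 FPKM (MUC1, peak-labelled) to 3788 FPKM (BTN1A1, late-labelled).

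BTN1A1, a butyrophilin of the apical plasma membrane, was the most abundant of the 9 in each library. It lies on scaffold NW_005100922.1 from 1593739 to 1600933. It had 2940.3 FPKM in the early library, 1241 FPKM in the peak-labelled library and 3788 FPKM in the late-labelled library. The peak-labelled value was 2.37-fold below the early one (log2 ratio -1.24), and the late-labelled value was 1.29-fold above it (0.37). Among protein-coding genes its rank by FPKM was 8, 12 and 5 in the order of the stages, so it stayed among the most abundant mRNAs also where its FPKM was lowest.

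XDH, xanthine dehydrogenase, is an enzyme of purine breakdown that also serves as a structural partner of BTN1A1 on the globule. Its locus is on scaffold NW_005100769.1 from 13995296 to 14062944, the longest of the 9 at 67649 nt with introns. Its FPKM was 1558 in the early library, 509 in the peak-labelled library and 2148 in the late-labelled library, with ranks of 18, 43 and 10. The log2 ratio of the peak-labelled over the early library was -1.61, a 3.06-fold lower value. BTN1A1 exceeded XDH by 1.89-fold in the early library, 2.44-fold in the peak-labelled library and 1.76-fold in the late-labelled library. These ratios are taken within a library and do not depend on how the libraries are scaled.

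PLIN2, also known as adipophilin, coats the droplets of most cells that store fat. On scaffold NW_005100736.1, from 1819600 to 1833367, it had 1298 FPKM in the early library, 452 FPKM in the peak-labelled library and 1268 FPKM in the late-labelled library. Its early and late-labelled values were nearly the same (log2 ratio -0.03), while the peak-labelled value was 2.87-fold below the early one (-1.52). PLIN3 is a perilipin that is also found free in the cytosol and binds young droplets. It had 78.5, 28.1 and 66.6 FPKM in the early, peak-labelled and late-labelled libraries, at NW_005100714.1 from 1647444 to 1669007. PLIN2 stood above PLIN3 by 16.5-fold, 16.1-fold and 19.0-fold in the same order. The log2 ratio of the peak-labelled over the early library was close for both perilipins, at -1.52 and -1.48.

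CIDEA promotes the fusion and enlargement of lipid droplets. Its FPKM was 643 in the early library, 197 in the peak-labelled library and 817 in the late-labelled library, at a locus of 5001 nt on scaffold NW_005100928.1 from 4199515 to 4204515. The peak-labelled value was 3.26-fold below the early one. PLIN2 exceeded CIDEA by 2.02-fold, 2.30-fold and 1.55-fold in the early, peak-labelled and late-labelled libraries. RAB18, a small GTPase found on droplets and the endoplasmic reticulum, showed the widest range of the 9 genes. It had 469 FPKM in the early library, 112 FPKM in the peak-labelled library and 562 FPKM in the late-labelled library, on scaffold NW_005100801.1 from 291454 to 319358. Its peak-labelled value was 4.20-fold below the early one (log2 ratio -2.07) and the late-labelled value was 5.03-fold above the peak-labelled one (2.33).

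CD36 is a membrane glycoprotein that takes up long-chain fatty acids and is carried into the globule membrane. Its FPKM was 685 in the early library, 179 in the peak-labelled library and 782 in the late-labelled library, at NW_005100653.1 from 7803149 to 7864509. The ratio of CD36 to RAB18 was 1.46, 1.60 and 1.39 in the order of the stages. CD36 is known also from adipocytes, endothelium and macrophages, and the markers of these cell types are given further on.

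MFGE8, or lactadherin, is a secreted protein that binds phosphatidylserine on the outer face of the globule. With 209.5, 118 and 381 FPKM in the early, peak-labelled and late-labelled libraries, on scaffold NW_005100899.1 from 590102 to 602951, it had the smallest gap between the early and peak-labelled libraries, 1.78-fold (log2 ratio -0.83). It also had the highest late-labelled over early ratio of the 9, 1.82-fold (0.86). BTN1A1 exceeded MFGE8 by 14.03-fold in the early library, 10.5-fold in the peak-labelled library and 9.93-fold in the late-labelled library. MUC1, a mucin of the apical surface, was the least abundant, with 13.1, 6.66 and 19.7 FPKM on scaffold NW_005100633.1 from 2045012 to 2050149. It ranked 3877, 6907 and 2544 among protein-coding genes, against ranks of 81 to 182 for MFGE8, and BTN1A1 exceeded it by 224-fold, 186-fold and 192-fold. Its peak-labelled value was 1.97-fold below the early one, just short of the fold of 2 used for calls.

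Between the early and peak-labelled libraries, 7 of the 9 genes differed at least 2-fold and all 7 were lower in the peak-labelled library, MFGE8 and MUC1 being the exceptions. The background was a share of 17.7% called among 13020 protein-coding genes, counting those above 0 in one of the libraries or both, with 6.8% lower and 10.9% higher in the peak-labelled library. The median log2 ratio was -1.52 over the 9 genes, with a range of -2.07 to -0.83, and 0.01 over all protein-coding genes above 0 in both libraries. Among the 11479 protein-coding genes that reached 1 FPKM in each of these libraries, 0.558% had a lower ratio than RAB18 and 8.21% a lower one than MFGE8. Abundant genes as a class were lower in the peak-labelled library. Of the 370, 28.6% differed at least 2-fold from the early library, 24.9% being lower and 3.78% higher there, and the median log2 ratio was -0.60. Of the 9 genes, 7 were in this abundant class, and 6 of these 7 were at least 2-fold lower.

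Between the early and late-labelled libraries, 0 of the 9 genes differed at least 2-fold, against 8.71% of all protein-coding genes (1.97% higher and 6.74% lower in the late-labelled library) and 4.05% of the abundant ones (1.08% higher and 2.97% lower). The log2 ratios of late-labelled over early ran from -0.24 (PLIN3) to 0.86 (MFGE8) with a median of 0.35, while the median over all protein-coding genes above 0 in both was -0.03. In 7 of the 9 genes the ratio was above 0. Only 1.13% of the 11234 genes that reached 1 FPKM in each of them had a higher ratio than MFGE8, 3.15% a higher one than MUC1 and 5.22% a higher one than XDH.

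Between the peak-labelled and late-labelled libraries, all 9 genes differed at least 2-fold and were higher in the late-labelled library. The share over all protein-coding genes was 25.9% in either direction, with 8.56% higher and 17.4% lower in the late-labelled library. In the abundant class it was 35.9%, with 29.7% higher and 6.22% lower. The log2 ratios ran from 1.24 for PLIN3 to 2.33 for RAB18 with a median of 1.69, beside -0.02 over all protein-coding genes above 0 in both. Since each library enters a pair of these comparisons, none of them stands on its own. In 7 of the 9 genes the peak-labelled value was at least 2-fold below both others, which held for 5.26% of all protein-coding genes and for 22.4% of the abundant ones.

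**Figure D2:**
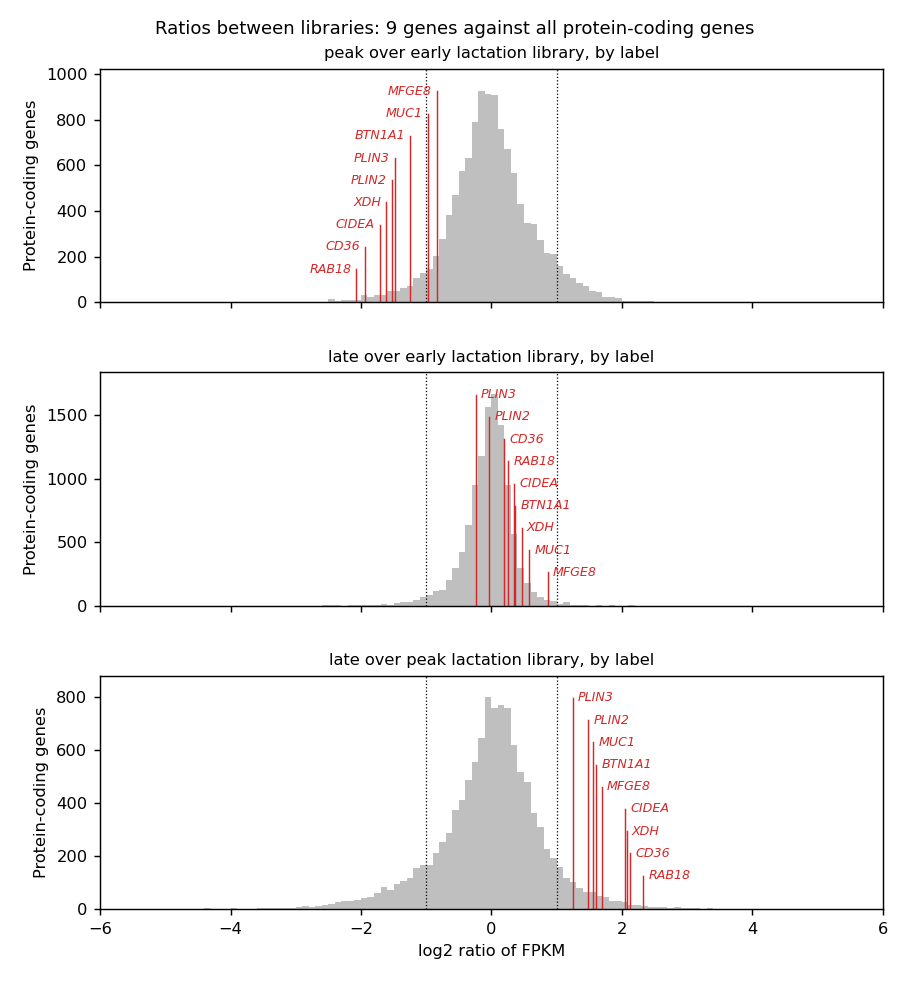
Histograms of the log2 ratio of FPKM over protein-coding genes that reach 1 FPKM in each of the libraries set against each other (grey), with the 9 genes as red lines whose height only separates the names, and dotted lines at a 2-fold difference. The 9 genes lie between -2.07 and -0.83 for peak-labelled over early, between -0.24 and 0.86 for late-labelled over early and between 1.24 and 2.33 for late-labelled over peak-labelled.

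These ratios rest on the scale of the FPKM. One locus outside the 13023 matched protein-coding genes took 30.0%, 46.0% and 29.9% of the FPKM sum of all loci in the early, peak-labelled and late-labelled libraries. With each library rescaled to the same sum after leaving this locus out, a common shift was taken off every log2 ratio, of -0.52 for peak-labelled over early, -0.13 for late-labelled over early and 0.39 for late-labelled over peak-labelled. On that scale 5 of the 9 genes were at least 2-fold lower in the peak-labelled than in the early library, with RAB18 at -1.55 and CD36 at -1.42, while BTN1A1 (-0.73) and PLIN3 (-0.96) did not reach the fold. Between the peak-labelled and late-labelled libraries 8 genes were at least 2-fold apart on that scale. Taken relative to the median of the abundant class, a scale chosen after the values had been seen, 4 genes were at least 2-fold lower, namely RAB18, CD36, CIDEA and XDH. The mean log2 ratio of the 7 luminal epithelial markers was 0.03 for peak-labelled over early, and relative to it 8 of the 9 genes were at least 2-fold lower. Shares over all protein-coding genes were not computed on these scales. Counts on them, here and below, therefore cannot be set against the shares given above. Under each of these scales all 9 ratios of peak-labelled over early stayed below 0 and all 9 of late-labelled over peak-labelled above 0. PLIN2 changed sign between late-labelled and early, from -0.05 to 0.09.

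**Figure D3:**
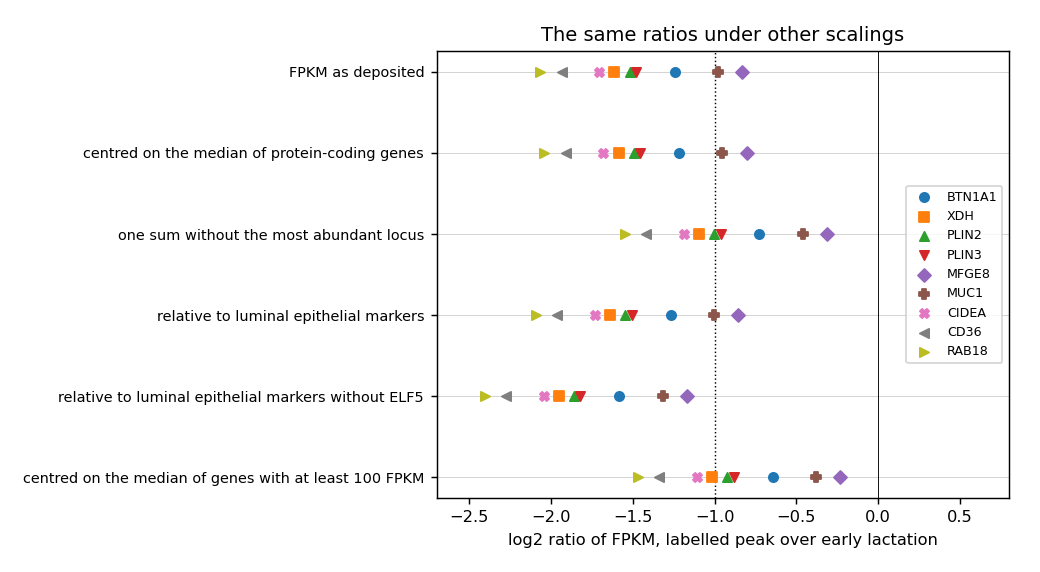
The log2 ratio of peak-labelled over early for each of the 9 genes (one marker each) with the FPKM as deposited and under 5 other scalings, with a dotted line at a 2-fold lower value. All markers stay left of 0, and the number left of the dotted line goes from 4 relative to the abundant genes to 9 relative to the luminal markers without ELF5.

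The 9 genes did not share a single profile. RAB18, CD36, CIDEA and XDH had the lowest peak-labelled over early ratios, -2.07 to -1.61, and the highest late-labelled over peak-labelled ratios, 2.05 to 2.33. PLIN2 and PLIN3 had intermediate ratios and were the only genes of the 9 with a late-labelled over early ratio below 0 as deposited. MFGE8 and MUC1 had the peak-labelled over early ratios closest to 0 and the highest late-labelled over early ratios. As a measure of likeness, the log2 FPKM of each gene was centred on its mean over the 3 libraries and the Euclidean distance between genes was taken. Over the 36 pairs the median distance was 0.48. XDH and CIDEA were the closest pair (0.09), followed by CD36 and RAB18 (0.15), and MFGE8 and RAB18 were the farthest apart (0.88). With 1 library per stage it cannot be said which of these gaps exceed the spread between samples.

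**Figure D4:**
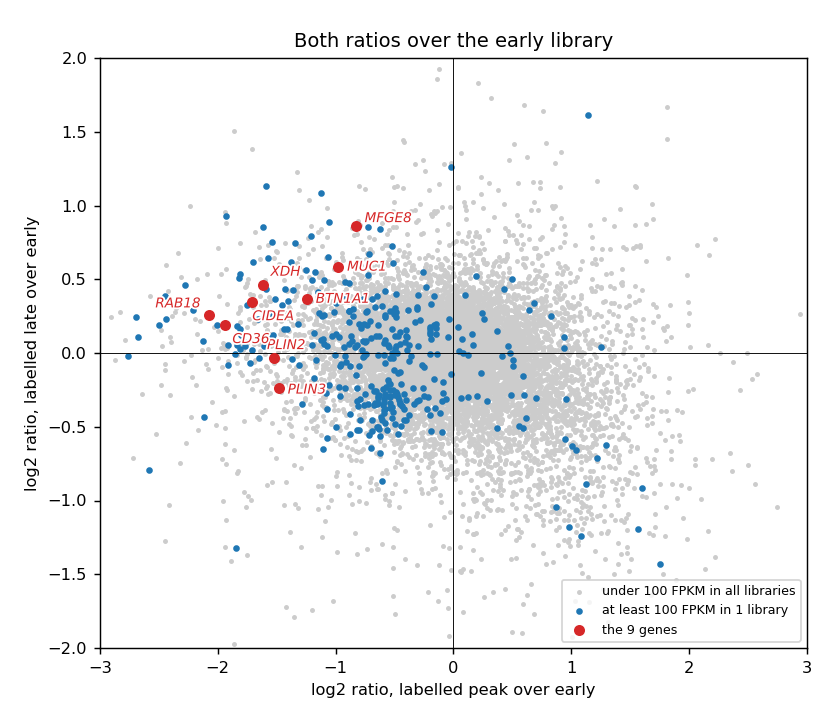
Log2 ratio of late-labelled over early (y axis) against that of peak-labelled over early (x axis) for 11087 protein-coding genes with at least 1 FPKM in all libraries, of which 34 lie beyond the axes. Genes with at least 100 FPKM in 1 library are blue and the 9 genes are red. RAB18 is farthest to the left, MFGE8 highest and PLIN3 lowest of the 9.

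The protein-coding genes nearest to each of the 9 on this measure were searched among 5438 genes. SDF2L1, with 33.7, 14.2 and 43.9 FPKM, was nearest to BTN1A1 (distance 0.01), and COL4A1, with 62.0, 20.2 and 84.2 FPKM, was nearest to XDH (0.02). NCF4 was nearest to PLIN2 (0.02), SLC39A14 to PLIN3 (0.01), PDE3B to MFGE8 (0.05), SEMA3A to MUC1 (0.04), MARC1 to CIDEA (0.03), TMEM171 to CD36 (0.04) and DDO to RAB18 (0.06). Such likeness was common. Within a distance of 0.25 there were 153 genes for BTN1A1, 113 for MUC1 and 105 for PLIN2, but only 24 for MFGE8 and 28 for RAB18. Likeness over 3 libraries rests on 2 independent ratios and is given as a description.

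The measured relatives of PLIN2, CIDEA, BTN1A1 and CD36 stood at much lower levels than these genes. PLIN1 and CIDEC are the perilipin and the CIDE protein typical of fat cells. PLIN1 had 1.28, 0.836 and 0.468 FPKM in the early, peak-labelled and late-labelled libraries, so that PLIN2 stood 1016-fold, 541-fold and 2712-fold above it. CIDEC had 1.73, 0.917 and 0.247 FPKM, and both were lowest in the late-labelled library, where CIDEA was highest. The precision of values this near 0 was not computed, so the order of PLIN1 and CIDEC and the folds over PLIN1 are uncertain. PLIN4 was listed at 0 in the late-labelled library and CIDEB in the early library, each below 1 FPKM elsewhere. Of 4 measured genes of this list, 0 were, as deposited, at least 2-fold lower in the peak-labelled than in the early library.

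Among other butyrophilins 2 of 6 listed genes had values. BTNL9 had 12.7 FPKM in the early library, 2.52 FPKM in the peak-labelled library and 20.3 FPKM in the late-labelled library, a 5.05-fold lower peak-labelled than early value. BTN2A2 ran the other way, with 0.833, 2.22 and 0.538 FPKM, although it begins 12706 nt after the end of BTN1A1 on the same scaffold. Neither relative of CD36 was 2-fold apart in any comparison. SCARB2, a lysosomal membrane protein, had 16.8, 16.2 and 18.4 FPKM and SCARB1, a receptor for lipoproteins, 5.49, 4.55 and 6.26 FPKM. CD36 stood above SCARB2 by 40.9-fold in the early library, 11.1-fold in the peak-labelled library and 42.5-fold in the late-labelled library.

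Of 11 measured genes for other proteins of the globule membrane, 5 were at least 2-fold lower and 2 at least 2-fold higher in the peak-labelled than in the early library, with a median log2 ratio of -0.89. On the scale with one sum these counts were 2 lower and 3 higher with a median of -0.37. FABP3, a fatty acid carrier of the cytosol, was the most abundant of the list, with 3051 FPKM in the early library, 563 FPKM in the peak-labelled library and 3583 FPKM in the late-labelled library, and the peak-labelled value was 5.42-fold below the early one. MUC15, a membrane mucin, had 108, 41.7 and 166 FPKM, a 2.60-fold lower peak-labelled value, and was thus 6.26-fold to 8.43-fold more abundant than MUC1. STOM, a membrane scaffold protein, had 83.2, 45.0 and 102 FPKM and was 2.26-fold higher in the late-labelled than in the peak-labelled library. The annexins, which bind membranes in a calcium-dependent way, ran differently. ANXA1 had 63.3, 127 and 40.9 FPKM, a 2.01-fold higher peak-labelled than early value, and ANXA2 had 214, 304 and 207 FPKM. Between the early and late-labelled libraries 1 of the 11 genes, LRP2, an endocytic receptor named after its values were seen, differed at least 2-fold, with 3.65 and 1.17 FPKM.

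The RAB18 list held the 18 measured genes for its activators RAB3GAP1 and RAB3GAP2, the GTPase-activating protein TBC1D20, other Rab proteins and SNAREs. As deposited, 0 of these 18 were at least 2-fold lower in the peak-labelled than in the early library, but 5 were relative to the luminal markers without ELF5. Their lowest log2 ratio as deposited was -0.91, against -2.07 for RAB18. Their median was -0.27 as deposited and turned to 0.25 on the scale with one sum. RAB1A, a GTPase of the secretory pathway, had 107, 58.0 and 124 FPKM, and RAB18 stood above it by 4.38-fold, 1.93-fold and 4.53-fold. RAB3GAP2 had 49.4, 27.4 and 62.0 FPKM and RAB3D, a GTPase of secretory granules, 28.7, 18.0 and 37.1 FPKM. RAB2A had 65.7, 40.4 and 72.1 FPKM. RAB32 was the 1 gene of the list at least 2-fold higher in the peak-labelled library, with 3.58, 7.28 and 2.04 FPKM. Between the peak-labelled and late-labelled libraries 3 were at least 2-fold higher and 1 lower in the late-labelled library, but 0 were higher on the scale with one sum.

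Genes for droplet formation and for the release of fatty acids from droplets showed no common direction. Of 12 measured genes, 1 was at least 2-fold lower and 2 at least 2-fold higher in the peak-labelled than in the early library, and the median log2 ratio was -0.32. On the scale with one sum these counts were 0 lower and 3 higher, with a median of 0.20. PNPLA2, the main triglyceride lipase of droplets, had 16.001 FPKM in the early library, 7.30 FPKM in the peak-labelled library and 15.6 FPKM in the late-labelled library, a 2.19-fold lower peak-labelled value as deposited that did not reach the fold on the scale with one sum. ABHD5, its activator, had 2.27, 6.50 and 1.29 FPKM and was thus 2.87-fold higher in the peak-labelled library. LIPE, hormone-sensitive lipase, had 3.06, 1.97 and 4.12 FPKM, and HSD17B11, a droplet-bound dehydrogenase, had 6.87, 11.4 and 3.68 FPKM. AUP1, a droplet protein that takes part in protein degradation, was the most abundant of the list with 95.1, 63.5 and 101.0 FPKM. The lipase genes PNPLA2 and LIPE thus stood far below PLIN2, which was at 452 FPKM or more.

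**Figure D5:**
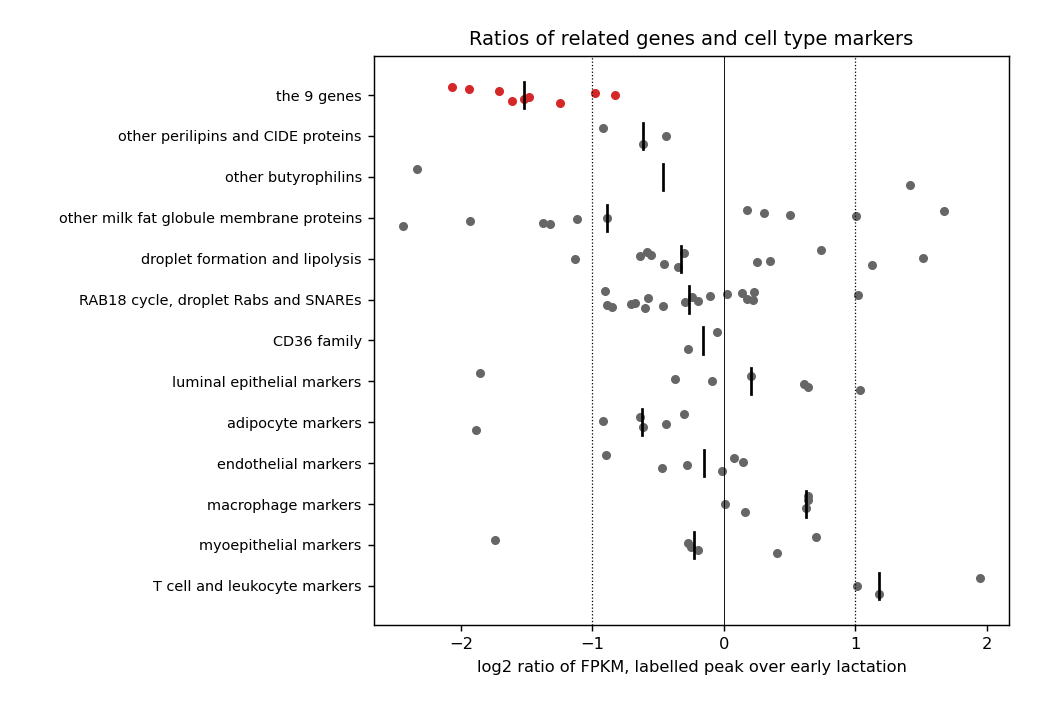
Log2 ratio of peak-labelled over early for the measured genes above 0 in both libraries of each list, 1 point per gene, with the list's median as a black bar and dotted lines at a 2-fold difference. The 9 genes (red) all lie left of 0 with a median of -1.52, whereas the T cell and leukocyte markers lie at 1.02 or more.

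In pooled tissue, fewer cells of a type and less RNA per cell cannot be told apart, so the markers of the cell types are given beside these results. Among the 7 luminal epithelial markers, ELF5, a transcription factor of milk-secreting cells, had 879, 243.5 and 875 FPKM in the early, peak-labelled and late-labelled libraries, a 3.61-fold lower peak-labelled value. KRT7 had 76.6, 157 and 48.6 FPKM, KRT19 had 439, 413 and 363.6 FPKM, and the median log2 ratio of the list for peak-labelled over early was 0.20, which turned to -0.13 relative to the markers without ELF5. Of the 4 T cell and leukocyte markers, 3 were at least 2-fold higher in the peak-labelled than in the early library and at least 2-fold lower in the late-labelled than in the early one. Relative to the luminal markers without ELF5, 1 was at least 2-fold higher in the peak-labelled library, and on the scale with one sum 1 was at least 2-fold lower in the late-labelled than in the early library. PTPRC, the common leukocyte antigen, had 17.6, 39.9 and 8.08 FPKM and CD2 had 6.25, 12.6 and 1.21 FPKM. CD3D had 2.68, 10.4 and 1.23 FPKM, a 3.86-fold higher peak-labelled than early value. CD3E ran the other way, listed at 0 in the early and peak-labelled libraries and at 1.43 FPKM in the late-labelled library. The summed FPKM of these 4 markers was 26.6, 62.9 and 11.95, and that of 5 macrophage markers 61.8, 87.7 and 37.3, with AIF1 at 20.3, 31.7 and 10.7 FPKM. None of the macrophage markers was at 0.

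The adipocyte markers were low, with a sum over 6 genes of 45.8, 27.8 and 31.9 FPKM. CFD held the largest part of it (23.8, 19.4 and 21.4 FPKM) and ADIPOQ, the adipocyte hormone, had 15.1, 4.10 and 5.69 FPKM, a 3.69-fold lower peak-labelled than early value. The 6 endothelial markers summed to 102, 92.2 and 107 FPKM. PECAM1 had 47.4, 46.9 and 38.1 FPKM, KDR 27.7, 22.8 and 35.4 FPKM and FLT1 4.58, 2.47 and 5.81 FPKM. As deposited, 0 of the 6 were at least 2-fold apart between the early and peak-labelled libraries. FLT1 was 2.36-fold higher in the late-labelled than in the peak-labelled library, but 0 were on the scale with one sum. The late-labelled over early ratio was above 0 in 5 of the 6, PECAM1 being the exception. The 6 myoepithelial markers summed to 259.7, 255 and 264 FPKM. ACTA2 had 93.3, 78.5 and 93.8 FPKM and MYH11 had 74.3, 61.5 and 94.9 FPKM. Of the 6 markers, 4 were lower and 2 higher in the peak-labelled than in the early library. The 2 higher ones, named after their values were seen, were KRT5 (73.2, 96.7 and 56.6 FPKM) and TP63 (4.97, 8.05 and 4.52 FPKM). The oxytocin receptor OXTR was the 1 marker of this list at least 2-fold lower in the peak-labelled than in the early library (3.83 and 1.14 FPKM). The part of these cell types in the lower values of the 9 genes was not tested.

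The 9 genes lie on 9 different scaffolds. Their 18 nearest genes with an ID, 1 on each side, lay 2282 to 507335 nt away and reached at most 59.0 FPKM. Of these neighbours 4 were at least 2-fold lower and 2 at least 2-fold higher in the peak-labelled than in the early library. The shares over 13020 protein-coding genes were 6.8% lower and 10.9% higher. The lower neighbours include SRD5A2, with 1.35 FPKM in the early library and a peak-labelled value of 0, set to 0.001 for the call. The median log2 ratio of the neighbours above 0 in both libraries was -0.49. HAPLN3, which encodes a link protein of the extracellular matrix and ends 11079 nt before MFGE8, had 7.53, 2.35 and 13.3 FPKM. LOC100860959, whose end lies 30004 nt before CD36, had 4.09, 1.75 and 8.39 FPKM. At these neighbours, both named after their values were seen, the order of the libraries was that of the gene beside them. It was also the order of 25.9% of all protein-coding genes. On the other side of CD36, GNAI1 had 15.5, 10.0 and 21.1 FPKM, the same order. On the other side of MFGE8, ABHD2 had 7.40, 10.9 and 7.74 FPKM, a different order. MKX, a homeobox gene 102802 nt before RAB18, had 0.857, 3.77 and 0.530 FPKM, the opposite order to RAB18.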

How the data were processed

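The authors deposited FPKM values of 50041 loci, with each library as a column of its own. The authors trimmed the reads with Trimmomatic, mapped them with TopHat2 2.0.9, assembled transcripts with Cufflinks 2.1.1 and Cuffmerge and quantified them with Cuffdiff. A Capra hircus reference genome is named in the methods, and which of its releases the scaffold positions belong to was not checked here. Gene IDs were matched to symbols through the RefSeq gene table of the ARS1.2 assembly (14403 of 15274 loci with a single ID), and loci of one ID were summed. Sequences were not analysed here.

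Ratios were taken from FPKM as deposited. Calls were made at a fold of at least 2, with an FPKM of 0 set to 0.001, and without a test since each stage had 1 library. Fold calls and the likeness search were checked on simulated data. Of 92 further symbols in the lists, 79 had values. The 9 genes, the lists and the alternatives were chosen with earlier results of these data known. From each list the 4 most abundant genes at least 2-fold apart in any comparison, with at least 1 FPKM, and the 2 most abundant overall are named, and of the 3 genes closest to each of the 9 the nearest is printed. Likeness used genes with at least 10 FPKM in 1 library and a symbol other than a LOC number. Python 3.11.15, numpy 2.4.6, pandas 2.3.3 and matplotlib 3.10.9 were used.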

Additional observations from a re-analysis of the deposited data

How the results depend on the processing

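Exchanging the columns labelled peak and late only renames the libraries. By construction its values are those of another comparison, or of the same comparison with the sign turned. It turned the median log2 ratio of the 9 genes for peak over early from -1.52 to 0.35, with 0 genes at least 2-fold apart, BTN1A1 at 0.37, XDH at 0.46, CIDEA at 0.35, CD36 at 0.19 and RAB18 at 0.26. It moved late over early from 0.35 to -1.52, with 7 genes apart, and late over peak from 1.69 to -1.69, with BTN1A1 at -1.61, XDH at -2.08, PLIN2 at -1.49, PLIN3 at -1.24, MFGE8 at -1.69, MUC1 at -1.56, CIDEA at -2.05, CD36 at -2.13 and RAB18 at -2.33.

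The medians for peak over early, late over early and late over peak were -1.49, 0.36 and 1.66 centred on the median of protein-coding genes, -1.002, 0.47 and 1.30 with one sum, -1.55, 0.44 and 1.82 relative to the luminal markers, -1.86, 0.46 and 2.14 without ELF5, and -0.92, 0.33 and 1.18 relative to genes with at least 100 FPKM, the last 2 chosen after seeing the data. Relative to those abundant genes 4 genes were at least 2-fold apart in peak over early. A fold of at least 4 left 1 gene (RAB18) in peak over early and 4 in late over peak, by construction, and a fold of at least 1.5 gave 1 (MFGE8) in late over early. Pseudocounts of 0.1 and 1 changed none of the counts. A minimum of 1 FPKM and keeping loci apart could change no value, since every gene had 1 locus and at least 6.66 FPKM. For single genes, 93 values under an alternative were the same to 2 decimals, of which 27 came from that minimum and 27 from keeping loci apart. Another 163 moved and 14 turned the direction of a ratio of at least 2-fold, all 14 by construction under the exchange of columns. No cause was tested. No paired analysis was possible because a stage was represented by 1 pooled library. No library could be left out for the same reason, and without read numbers per gene the precision of values near 0 was not computed.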

Other observations

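Of the deposited values above 0, 41.2%, 46.7% and 41.7% in the early, peak-labelled and late-labelled columns had 7 significant digits. Among these, 95.7%, 99.3% and 97.3% ended in 5, as the mean of 2 values of fewer digits would. Whether any values were averaged is not stated in the sources used here.

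Across 11087 protein-coding genes with at least 1 FPKM in all libraries, which are not independent replicates, the Spearman coefficient was 0.97 between the early and late-labelled libraries, 0.90 between the early and peak-labelled libraries and 0.86 between the peak-labelled and late-labelled libraries. The peak-labelled library, in which the 9 genes were lowest, was thus the one that differed most from the others over all genes.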
